A study of Ovis aries with 16 samples.

Results

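Expression of 15 genes for protein translocation into the endoplasmic reticulum (ER) and for N-glycosylation was described in fetal sheep liver by bulk RNA sequencing. The genes were chosen by symbol from the study's list of genes that differed between hypoxic and normal livers, so they were selected on the same contrast, in the same livers, that is described below. Of 45 gene symbols of this machinery that were looked for, 15 were paired with an identifier in that list, and the other 30 were not analysed here. The count table holds 26478 genes, of which 8580 had 250 reads or more in 8 livers or more, and all 15 genes passed that minimum. Since the difference between the groups chose the genes, their levels in the groups are given as a description, and nothing is drawn from their shared direction. Where fits of this contrast place the 15 genes against a threshold further below, that is no test of them. The study called 487 genes, and its list holds 487 identifiers, 438 of them with a symbol. Those 30 genes were thus not called by the study, unless listed without a symbol or under another name. Which of them passed the study's own read minimum is not known here.

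Welsh Mountain ewes carrying singletons breathed normal air (CON, *n* = 9 fetuses, 5 male and 4 female) or 10% inspired O2 for 30 days in late gestation (HOX, *n* = 7 fetuses, 3 male and 4 female). The labels place the livers at 0.9 of gestation, near day 130, and the study's methods give a later day. Each liver gave 1 polyA-enriched library and was 1 replicate, named here by its group and animal number. Total counts were 24065959 to 29353692 reads per CON liver (median 27762095) and 23955166 to 33952503 per HOX liver (median 25055592). Levels are given as CPM, counts scaled to library size with TMM factors, as the mean ± SD of the livers, and differences as log2 fold changes of HOX against CON ± SE. Gene lengths were not used, so levels are compared between livers and not between genes.

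Most proteins that hepatocytes secrete or place on their surface enter the ER while they are being made. The signal recognition particle (SRP) binds the emerging signal peptide and docks at its receptor, the chain passes through the Sec61 channel with help from SEC62 and the translocon-associated protein (TRAP) complex, and signal peptidase removes the signal peptide. A branched sugar chain, built in advance on the lipid dolichol by the ALG enzymes with dolichol-phosphate mannose as a donor, is then moved to asparagine residues by the oligosaccharyltransferase. In liver this route carries most plasma proteins, many of which are glycoproteins.

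One liver stood apart from the others before any group was compared. On the first principal component of log2 CPM, which held 25.6% of the variance, the liver of a HOX female, animal 1, was at 64.4, with the remaining 15 from −15.6 to 6.23. Group values are therefore given with it, and most of them also without it. Within CON, animal 6, also a female, had the highest level of the 9 livers for 10 of the 15 genes, against 18.7% of all genes tested.

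The 15 genes together took a median of 0.155% of the reads of a CON liver, at most 0.194%, and 0.116 to 0.210% of those of a HOX liver (median 0.137%). The highest share in CON was that of animal 6 and the highest in HOX that of animal 1. HOX animals 2 and 3 had the lowest shares of the 16 livers, at 0.120% and 0.116%. Averaged over the 15 genes, log2 CPM was 6.22 ± 0.15 in CON, 5.95 ± 0.29 in HOX and 5.85 ± 0.14 in HOX without animal 1. HOX animals 2 to 7 lay between 5.65 and 6.04 in this average, below the lowest CON liver at 6.07, while HOX animal 1 lay at 6.53, next to CON animal 6 at 6.56. In bulk tissue, fewer cells of a type and less RNA per cell cannot be told apart.

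Each of the 15 genes had a log2 fold change below 0, between −0.43 ± 0.18 for *ALG12* and −0.11 ± 0.11 for *RPN2*, with a median of −0.23. Over all 8580 genes the median was 0.01, and 48.8% had a log2 fold change below 0. Without HOX animal 1 the median of the 15 became −0.37, from −0.54 ± 0.14 for *DPM2* to −0.22 ± 0.08 for *SEC62*. Leaving out some other livers brought the median nearer to 0, to −0.15 without HOX animal 3 and −0.16 without HOX animal 6 or CON animal 6. Without CON animal 1 or CON animal 2 it was −0.24, slightly further from 0. The genes were chosen for the difference between the groups, a choice that can itself make it larger. Its size and its spread over livers are therefore description only.

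The groups overlapped in every one of the 15 genes. None of them (0) had all 7 HOX livers below every CON liver, as 0.0699% of all genes did, and 0 had HOX animals 2 to 7 below every CON liver, as 0.198% did. In 14 genes, all but *ALG14*, HOX animals 2 to 7 were all below the CON median, a position held by 9.2% of the genes tested. HOX animal 1 was the highest of the 16 livers in 9 genes (21.9% of all genes) and above the CON mean in 12 (45.7% of all genes). The exceptions were *ALG12*, *ALG14* and *SEC62*.

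Over all genes, edgeR's quasi-likelihood test of HOX against CON called 5 of 8580 at an adjusted *P* under 0.15, all lower in HOX (0.0583% of the genes), and 6.18% were lower with an unadjusted *P* under 0.05. DESeq2 called 237 genes, of which 138 were lower (1.61%). Weighting livers by quality, limma-voom gave 146, of which 95 were lower (1.11%). Without HOX animal 5, edgeR called 47 genes, 25 lower and 22 higher. Without HOX animal 1, edgeR called 12 genes, with 8.37% of genes lower at an unadjusted *P* under 0.05. DESeq2 without HOX animal 1 called 523, of which 302 were lower (3.56%). In this paragraph the 15 genes are placed against the threshold only in this last fit, and only to show where its edge lies. There *SRPRB*, at −0.30 ± 0.11, was the nearest on its inner side, and *ALG12*, at −0.49 ± 0.19, the 1 gene outside it.

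Among the SRP genes, *SRP19* and *SRPRB* were found of 8 looked for. *SRP19* (ENSOARG00020014905) encodes a protein that binds the RNA of the particle and takes part in its assembly. Its level in CON had a lowest value of 25.2 CPM, a median of 30.2 and a highest value of 47.9, and in HOX the corresponding values were 21.5, 25.4 and 56.2. The highest HOX value was that of animal 1, and without it the highest was 27.4, so HOX animals 2 to 7 overlapped only the lowest CON liver. The log2 fold change was −0.17 ± 0.19, and from −0.41 (without HOX animal 1) to −0.06 when any 1 liver was left out. *SRPRB* (ENSOARG00020019545) encodes the membrane-anchored β subunit of the SRP receptor. In 8 CON livers it lay within a narrow band up to 26.5 CPM, from a lowest value of 21.6, and CON animal 6 reached 32.7. HOX livers ran from 16.9 to 34.8 CPM with a median of 20.7, and without animal 1 the highest was 22.0. Thus 5 of the 7 HOX livers were below the lowest CON liver in *SRPRB*, and the remaining HOX animals 6 and 1 were inside and above the CON range.

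Of 10 genes looked for around the channel, *SEC62*, *SSR2* and *SSR3* were found, and subunits of the Sec61 channel itself were not analysed here. *SEC62* (ENSOARG00020001839) encodes a membrane protein that acts at the channel on precursors delivered after translation and also as a receptor in the turnover of ER. It had 246 CPM in the lowest CON liver, 268 at the median and 319 in the highest, against 192, 235 and 253 in HOX. With 6 of 7 HOX livers below the lowest CON liver, this gene came closest to separating the groups. HOX animal 1, above the CON mean in 12 of the 15 genes, was here at 194 CPM, ranked 15 of the 16 livers from the top. Its log2 fold change of −0.25 ± 0.08 was hardly moved by leaving that liver out (−0.22 ± 0.08).

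*SSR2* (ENSOARG00020015600) and *SSR3* (ENSOARG00020001079) encode the β and γ subunits of TRAP, which sits beside the channel and aids the entry of some precursors. *SSR3* ranged from 93.1 to 136 CPM in CON (median 105) and from 61.8 to 159 in HOX (median 84.4). CON animal 6 was the highest CON liver and HOX animal 1 the highest of all, and 5 of the 7 HOX livers were below the lowest CON liver. The mean of *SSR3* was 107 ± 12.8 in CON, 91.6 ± 32.4 in HOX and 80.4 ± 14.5 in HOX without animal 1, and the log2 fold change went from −0.22 ± 0.16 to −0.41 ± 0.11 when that liver was left out. *SSR2* was at 103 ± 12.1 CPM in CON and at 82.2 ± 10.2 in HOX without animal 1, and at 135 CPM in HOX animal 1. Its lowest values were those of HOX animals 7 and 3, at 70.5 and 71.4 CPM.

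Signal peptidase was represented by *SEC11C* and *SPCS2*, 2 of 5 genes looked for. *SEC11C* (ENSOARG00020024983) encodes one of the alternative catalytic subunits of the enzyme. Its level was 34.9 CPM in the lowest CON liver, 51.0 at the median and 65.8 in the highest, and 23.8, 38.4 and 83.2 in HOX. CON livers formed a lower set of animals 1, 2, 3 and 8, between 34.9 and 40.3 CPM, and a higher set from 51.0 CPM upwards, and HOX animals 2 to 7 reached no higher than 41.8. HOX animal 1 was above every other liver. The coefficient of variation of *SEC11C* was 25.5% in CON and 46.4% in HOX, and 19.0% in HOX without animal 1. *SPCS2* (ENSOARG00020004400), an accessory subunit, varied less, at 141 ± 14.4 CPM in CON and 120 ± 18.7 in HOX (116 ± 15.6 without animal 1), with HOX animals 2 and 3 lowest at 95.1 and 100.4 CPM.

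Of 15 genes for assembly of the dolichol-linked sugar chain, 4 were found. *ALG14* (ENSOARG00020001092) encodes the membrane anchor of the transferase that adds the second N-acetylglucosamine on the cytosolic face of the ER. Levels of this gene were 12.5, 13.5 and 21.9 CPM (lowest, median and highest) in CON and 10.1, 11.0 and 14.0 in HOX. These are the lowest counts among the 15 genes, down to 255 reads in HOX animal 4, so their counting error is the largest of the set relative to the level. HOX animals 5 and 7 and animal 1 lay among the CON livers, and the log2 fold change was −0.39 ± 0.13, or −0.41 ± 0.14 without animal 1.

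*DPM2* (ENSOARG00020015235) encodes a regulatory subunit of the synthase that makes dolichol-phosphate mannose, the mannose donor inside the ER. It ran from 19.0 to 33.2 CPM in CON, with a median of 22.7, and from 13.0 to 25.7 CPM in HOX, with a median of 16.7. Among HOX livers 5 of 7 were below the lowest CON liver, animal 5 was within the CON range at 21.7 CPM, and animal 1 had the highest value. CON animal 6, high for most of the other genes, was at 23.3 CPM here, and the highest CON liver was animal 3. The log2 fold change was −0.42 ± 0.15, and −0.54 ± 0.14 without HOX animal 1, the lowest of the 15.

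*ALG12* (ENSOARG00020005732) encodes a mannosyltransferase that acts on the growing chain inside the ER. Its levels in CON were the most scattered of the 15 genes, from 39.1 to 98.5 CPM around a median of 60.2, a coefficient of variation of 32.9%. CON animals 6 and 9 were the high livers, at 97.6 and 98.5 CPM, and the other 7 were at 68.1 CPM or less. In HOX *ALG12* had a narrower range, from 37.6 to 59.3 CPM (median 46.0), inside that of CON except for animal 3. *ALG5* (ENSOARG00020005611) encodes the enzyme that makes dolichol-phosphate glucose, the donor for the last sugars of the chain. It was at 37.0 ± 5.67 CPM in CON and at 29.6 ± 2.68 in HOX without animal 1, which alone had 51.1 CPM.

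The oligosaccharyltransferase was covered best, with 4 of 7 genes found, none of them a catalytic STT3 subunit. *DDOST* (ENSOARG00020023593) encodes a subunit that helps to hold the complex together. Its lowest, median and highest levels were 277, 327 and 392 CPM in CON and 206, 256 and 456 CPM in HOX. HOX animals 2, 3, 4 and 7 were below the lowest CON liver, animals 5 and 6 overlapped it, and animal 1 was above every CON liver. The log2 fold change of *DDOST* was −0.23 ± 0.14 with all livers and −0.39 ± 0.10 without HOX animal 1.

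*RPN2* (ENSOARG00020008695), for ribophorin II, another non-catalytic subunit, had the tightest levels of the 15 genes in CON, with a coefficient of variation of 6.08%. CON livers lay between 242 and 294 CPM (median 283), and HOX livers between 208 and 399 (median 234). HOX animals 2 to 7 gave 233 ± 14.3 CPM, as tight as CON, with 4 of them below the lowest CON liver, and animal 1 was 1.43 times the CON mean. The log2 fold change of *RPN2* was −0.11 ± 0.11, and from −0.25 (without HOX animal 1) to −0.05 when any 1 liver was left out. *OSTC* (ENSOARG00020025423) encodes the subunit that joins the complex to the channel, and *DAD1* (ENSOARG00020011202) a small core subunit whose loss leads to cell death. *OSTC* was at 126 ± 17.0 CPM in CON and 103 ± 20.7 in HOX, or 97.02 ± 13.0 without animal 1. *DAD1* was at 87.1 ± 11.5 CPM in CON and 76.1 ± 19.6 in HOX, where animals 2 to 7 were between 60.6 and 74.1 CPM and animal 1 was at 119.

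By role, the median log2 fold change was −0.16 for the SRP genes, −0.22 for the channel and TRAP genes, −0.23 for signal peptidase, −0.41 for dolichol-linked assembly and −0.21 for the oligosaccharyltransferase. Without HOX animal 1 these medians were −0.35, −0.32, −0.39, −0.45 and −0.35. The spread of roles was thus wider with that liver than without it. With HOX animal 1 the median coefficient of variation of the 15 genes in HOX was 25.8% (all genes 19.2%), and without it 12.3% (all genes 14.6%). In CON it was 13.5%, against 16.5% over all genes. Spread inside the groups also entered the choice of the genes, so nothing is drawn from this comparison with all genes.

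The balance between genes was followed through 10 log2 ratios of 2 genes, each set to 0 at its CON mean. *RPN2* over *DDOST* lay between −0.22 and 0.20 in CON livers and between −0.06 and 0.30 in HOX animals 2 to 7, and it was 0.05 in HOX animal 1. *DAD1* over *DDOST* lay between −0.25 and 0.31 in CON and between −0.13 and 0.16 in HOX animals 2 to 7, with animal 1 at −0.01. *OSTC* was less high in that liver than these 3 genes, with *OSTC* over *DDOST* at −0.28 (CON −0.26 to 0.31) and *DAD1* over *OSTC* at 0.28 (CON −0.20 to 0.25), both just outside the CON range. *SEC62* over *DDOST* lay between −0.22 and 0.29 in CON and between 0.08 and 0.26 in HOX animals 2 to 7, and at −0.93 in HOX animal 1. *SEC11C* over *SPCS2* was 0.72, *ALG5* over *ALG14* 0.69 and *SRP19* over *SRPRB* 0.27 in that liver, above the highest CON values of 0.39, 0.27 and 0.21. *SSR2* over *SSR3* (−0.18) and *ALG12* over *ALG5* (−0.53) were inside the CON range there. The genes were thus not all high in HOX animal 1, where *SEC62*, *ALG12* and *ALG14* were below the CON mean.

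How the genes varied together inside a group does not use the difference of the group means. The choice of the genes also rested on their spread inside the groups, so these values are not independent of that choice. Pairs of other genes from the same list were not compared. Over the 9 CON livers, the median Pearson's *r* of the 105 pairs of genes was 0.53, and 53.3% of pairs were above 0.5, against a median of −0.003 and 10.9% of pairs over all genes tested. Much of this came from 1 liver. Without CON animal 6 the median was 0.20, and 23.8% of pairs were above 0.5 (11.9% over all genes). In HOX the median was 0.82 with animal 1 and 0.62 over the other 6 livers, where 69.5% of pairs and 17.5% of all pairs of genes were above 0.5. These values are descriptions over 9, 8, 7 or 6 livers that share their scaling, and the genes were picked from one list.

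*OSTC* and *SEC62* were the closest pair in CON (*r* = 0.90), followed by *SRP19* and *SRPRB* (0.86) and by *OSTC* and *SPCS2* (0.85). Without CON animal 6, *OSTC* and *SEC62* had an *r* of 0.84. *DPM2* did not follow the mean of the other 14 genes in CON (*r* = −0.002, and −0.01 without animal 6), and *RPN2* had an *r* of 0.24 with them. *SSR3* depended most on CON animal 6, since its *r* with the other genes was 0.43 with that liver and −0.67 without it, down to −0.83 with *OSTC* and −0.82 with *SPCS2*. In HOX without animal 1, *SSR3* instead had an *r* of 0.95 with *SPCS2* and of 0.85 with the mean of the others. *DDOST*, *OSTC* and *SRP19* were close to one another there (*r* = 0.97 for *DDOST* with *OSTC* and 0.97 for *DDOST* with *SRP19*), and *SRPRB* followed the others least (0.28). *SEC62* had an *r* of −0.20 with the other genes over the 7 HOX livers and 0.95 without animal 1.

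**Figure D1:**
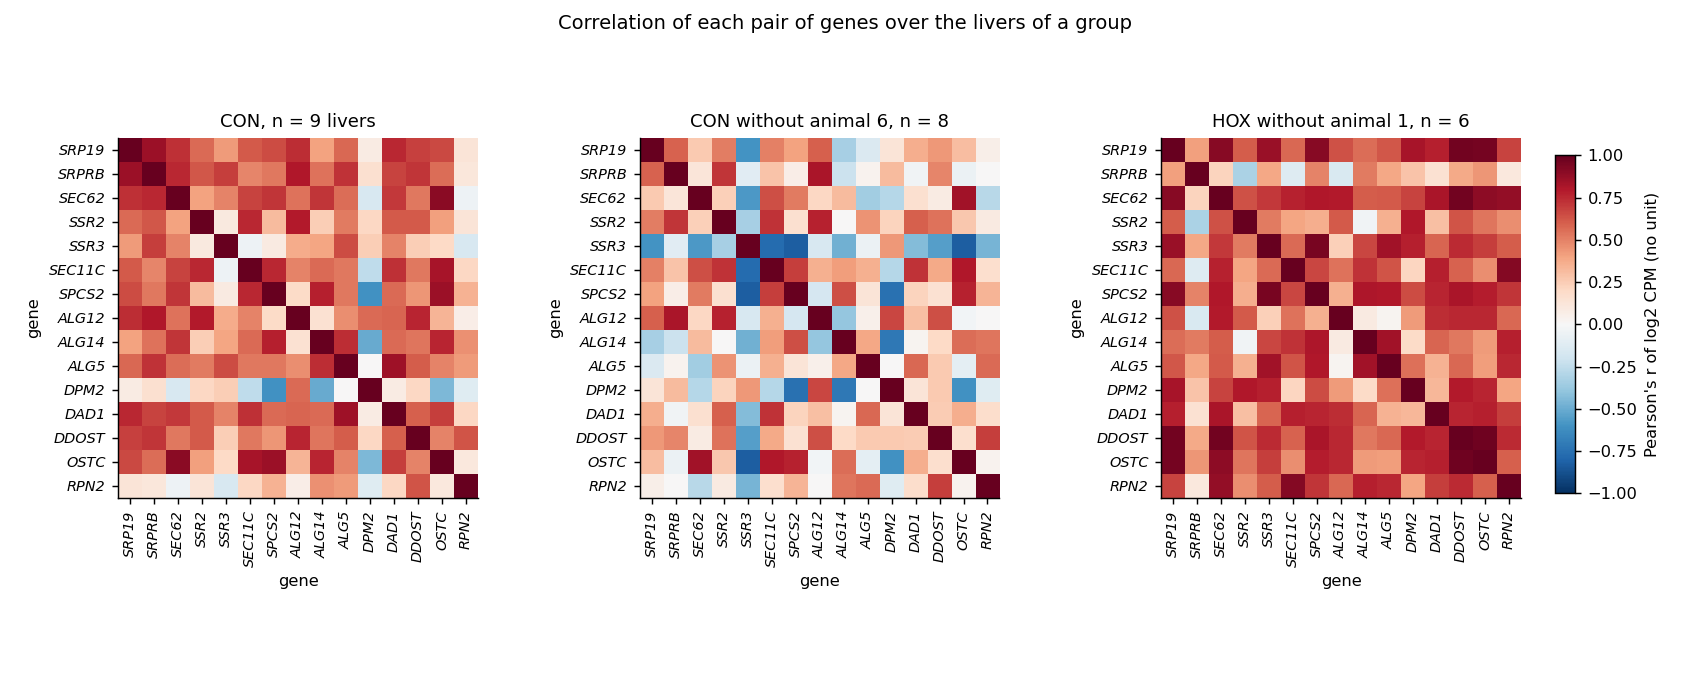
Pearson's *r* of log2 CPM for each pair of the 15 genes, as colour from −1 (blue) to 1 (red), over the 9 CON livers, over 8 CON livers without animal 6 and over 6 HOX livers without animal 1; both axes list the genes by role. Most pairs are red in CON with a median of 0.53, the median falls to 0.20 with *SSR3* mostly blue when CON animal 6 is left out, and it is 0.62 in the 6 HOX livers.

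Among other genes with a symbol, the 5 whose level followed the mean of the 15 most closely over the 9 CON livers were *NHP2* (*r* = 0.97), *COX3* (0.91), *TMEM255A* (0.91), *CALU* (0.89) and *TMEM223* (0.88). *NHP2*, which encodes a protein of small nucleolar ribonucleoproteins, ranked 1 of 8580 genes and *COX3*, a mitochondrial DNA gene for a cytochrome oxidase subunit, ranked 27, so many closer genes had no symbol. Over HOX animals 2 to 7 the *r* of *NHP2* was 0.74 and that of *CALU*, at 1 of its 2 identifiers, was −0.03. These genes also came from the list of genes that differed. Among the 15, the highest *r* with the mean of the others over the 9 CON livers was 0.88 (*SRPRB*).

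Fetal sex was not used to choose the genes, and male and female livers were compared with treatment as a covariate (8 male, 8 female). edgeR called 2 of 8580 genes, both lower in males (0.0233%), and 0 of the 15, none of which had an unadjusted *P* under 0.05 (267 of all genes did, 3.11%). DESeq2 called 7 genes and limma-voom 3, and 0 of the 15 by either. The fold change of males against females was below 0 in 14 of the 15 genes, with a median of −0.09, while 52.7% of all genes were lower in males. With limma-voom 6 of the 15 were lower and the median was 0.03, so the direction depended on the tool. The 3 genes with the smallest *P* were *DAD1* (log2 fold change −0.21 ± 0.12, lower than the female mean of its own group in 8 of 8 males), *SRP19* (−0.30 ± 0.18, 7 of 8) and *SEC11C* (−0.35 ± 0.22, 6 of 8), each with an adjusted *P* of 0.974 in edgeR. *DPM2* was the 1 gene higher in males (0.12 ± 0.15).

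Both livers that were high in most of the 15 genes, CON animal 6 and HOX animal 1, were female. Without HOX animal 1 the median over the 15 genes was −0.01, with 8 lower in males, and without CON animal 6 it was −0.05, with 11 lower. A difference between the sexes in these genes was thus not detected, and the median was nearer to 0 without either liver.

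Whether HOX differed from CON to another extent in males than in females was tested as an interaction. edgeR called 0 genes (0.0%), with 281 at an unadjusted *P* under 0.05 (3.28%), DESeq2 called 6 and limma-voom 0, and the 15 genes gave 0 calls by any of them and 0 at an unadjusted *P* under 0.05. The mean log2 CPM of the 15 went from 6.24 ± 0.21 in CON females (*n* = 4) to 6.01 ± 0.36 in HOX females (*n* = 4), and from 6.20 ± 0.11 in CON males (*n* = 5) to 5.87 ± 0.20 in HOX males (*n* = 3). Without animal 1 the HOX females were at 5.84 ± 0.11 (*n* = 3). The median interaction coefficient was −0.14 with all livers and 0.10 without HOX animal 1, and limma-voom with all livers gave 0.02, so its sign depended on that liver and on the tool. *SEC11C* had the lowest coefficient, −0.56 ± 0.42, with an adjusted *P* of 0.999 in edgeR.

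Other genes of the secretory pathway were taken from lists by function and could also be found only through the list of genes that differed, so their directions are not independent of it. Of 20 genes listed for insertion of membrane proteins, 3 were found: *EMC1* (−0.13 ± 0.12), *WDR83OS* (−0.18 ± 0.10) and *JAGN1* (−0.24 ± 0.17), the last for an ER protein of the early secretory pathway that is not a known part of the insertion complexes. Without HOX animal 1 they were at −0.28 ± 0.08, −0.25 ± 0.09 and −0.44 ± 0.13. For the supply of sugar nucleotides, 5 of 24 were found and 4 were lower (median −0.42), with *GALT*, for galactose use, at −0.67 ± 0.17 and *MPI*, which makes mannose 6-phosphate, at −0.50 ± 0.12 as the lowest, and *PMM1* (−0.23 ± 0.09) and *GNPNAT1* (0.03 ± 0.22) as the highest. Without HOX animal 1 all 5 were lower (median −0.54), and *GNPNAT1* was at −0.31 ± 0.11, so that liver set its sign. Of 30 genes for folding enzymes and chaperones, 7 were found at 8 identifiers, among them *FKBP7* (−0.53 ± 0.13), *MESD* (−0.17 ± 0.13, or −0.33 ± 0.09 without HOX animal 1) and *CALU*. The 2 identifiers of *CALU* differed, at −0.06 ± 0.16 (−0.28 ± 0.09 without HOX animal 1) and, for the one that followed the 15 genes in CON, −0.38 ± 0.14 (−0.53 ± 0.11). The list for glycan trimming and ER-associated degradation had 4 of 27, all lower (median −0.26): *SELENOS* (−0.29 ± 0.13), *CDK5RAP3* (−0.29 ± 0.10), *UFC1* (−0.24 ± 0.09) and *AUP1* (−0.20 ± 0.12, or −0.31 ± 0.10 without HOX animal 1). None of these 4 encodes a glycan-trimming enzyme. For transport between ER and Golgi, 9 of 39 were found, all lower (median −0.26), from *TMED6* (−0.78 ± 0.21) and *TMED3* (−0.62 ± 0.17) to *TMED9* (−0.15 ± 0.10) and *KDELR2* (−0.14 ± 0.11). These last 2 were at −0.25 ± 0.07 and −0.26 ± 0.07 without HOX animal 1. Lists without a shared direction were GPI anchor synthesis (*PIGQ* 0.65 ± 0.20, *PIGK* −0.21 ± 0.10, 2 of 22 found) and ribosomal proteins (4 of 20 found, *RPS27L* −0.42 ± 0.10, *RPL26L1* −0.13 ± 0.20 or −0.38 ± 0.13 without HOX animal 1, *RPL12* 0.25 ± 0.09, *RPLP0* 0.33 ± 0.11). Of 12 regulators and targets of the unfolded protein response, *CREBRF* was found, at 0.33 ± 0.15.

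The cargo of the pathway was looked at through a list of 49 secreted and surface proteins of hepatocytes, most but not all of them glycoproteins. Of these, 14 were found, 13 lower and 1 higher (median −0.49, or −0.42 without HOX animal 1). *AFP* (−2.99 ± 0.67) and the complement gene *C4B* (−0.82 ± 0.23) had the lowest values, and *THPO* (−0.29 ± 0.12) and *HGFAC* (0.43 ± 0.13) the highest. Their summed level was 27248 ± 3136 CPM in CON and 19775 ± 3053 in HOX (20386 ± 2838 without animal 1), with the most reads from *FGG* in CON. HOX animal 1 had the lowest sum of the 16 livers, 16109 CPM, although its sum over the 4 oligosaccharyltransferase genes was the highest, 1115 CPM against 739 to 945 in CON. CON animal 6, high for the machinery, had 29932 CPM for the 14 secreted and surface proteins, below only CON animal 4 at 33623. In HOX animal 1 the sum for ER to Golgi transport (686 CPM, CON at most 604) was also above every CON liver. The sums for sugar nucleotide supply (278 CPM, CON at most 428) and for the genes found of the trimming and degradation list (391 CPM, CON at most 479.9) were not.

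**Figure D2:**
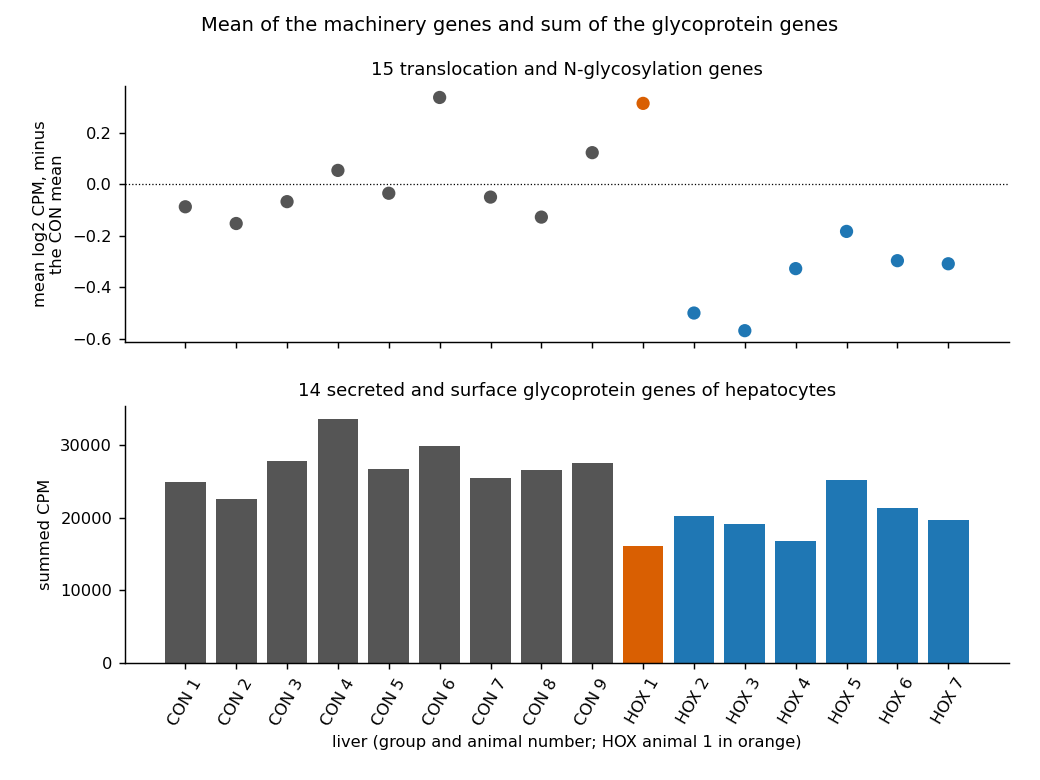
Top, mean log2 CPM of the 15 translocation and N-glycosylation genes in each liver, minus the mean of the CON livers. Bottom, summed CPM of 14 genes for secreted and surface proteins, most but not all of them glycoproteins, in each liver, with bars from 0. Grey is CON, blue HOX and orange HOX animal 1, which is 0.31 above the CON mean in the top panel and has the lowest sum, 16109 CPM, in the bottom panel.

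Markers of cell types, found through the same list of genes that differed, also varied between these livers. Erythroid markers, 4 of 18 found, were all higher in HOX (median 0.73, or 0.81 without animal 1): *EPOR* (0.93 ± 0.38), *CPOX* (0.78 ± 0.28), *TFRC* (0.67 ± 0.31) and *ANK1* (0.64 ± 0.26), the last with the most reads. Their sum was 297 ± 115 CPM in CON and 479 ± 195 in HOX (516 ± 185 without animal 1), and it ran from 170 CPM (animal 6) to 533 (animal 5) in CON and from 259 (animal 1) to 772 (animal 4) in HOX. HOX animals 2 and 3, with the lowest mean of the 15 genes, were at 441 and 384 CPM. Hepatocyte markers, 5 of 15 found, were all lower (median −0.58, or −0.48 without HOX animal 1), from *AFP* and *SLC22A7* (−0.62 ± 0.15) to *AGXT2* (−0.46 ± 0.15) and *FAH* (−0.44 ± 0.15), with sums of 1966 ± 701 CPM in CON, 1012 ± 155 in HOX, 1064 ± 75.5 in HOX without animal 1 and 697 in HOX animal 1. The CON sums had a median of 1761 and reached 3708 in animal 3, the other 8 livers being at 2178 or less. The most reads came from *AFP* in CON (603 ± 654 CPM) and from *HAAO* in HOX. The 1 macrophage marker found of 13, *CD163*, was at 323 ± 58.1 CPM in CON, 213 ± 83.3 in HOX, 239 ± 54.6 in HOX without animal 1 and 61.9 in HOX animal 1. *CD34*, 1 of 10 endothelial markers, was at 13.7 ± 6.97 and 28.3 ± 12.8 CPM in CON and HOX, and at 29.4 ± 13.6 in HOX without animal 1. Of 13 stellate cell and fibroblast markers, *ASPN* (0.38 ± 0.12) and *TGFBI* (−0.50 ± 0.21) were found, with a summed level of 179 ± 20.6 CPM in CON, 161 ± 35.2 in HOX, 173 ± 18.6 in HOX without animal 1 and 91.3 in HOX animal 1, and the most reads from *TGFBI* in CON. Of 7 plasma cell and B cell markers 0 were found. Which part these cell types have in the levels of the 15 genes was not tested.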

How the data were processed

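Per the labels and the study's methods, the authors prepared polyA-enriched libraries from frozen liver, sequenced paired reads (2 × 150 bp) and mapped them with STAR 2.7.10b (version from the submitters' processing notes). The genome was ARS-UI_Ramb_v1.0 in its Ensembl annotation, and the unscaled counts of each gene were deposited by the authors. The counting rule and its use of strand are not given in the sources used here. In the RefSeq annotation of another sheep assembly, used for names only, *ALG14* overlaps non-coding genes, *RPN2* overlaps *MROH8*, *SPCS2* overlaps *XRRA1* and *SSR3* overlaps *KCNAB1*, so reads of these 4 may include reads of the other gene, and 14 of the 15 symbols were matched there.

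Genes carry no symbol in the count table. Names were taken from the identifier and symbol columns of the study's list of differing genes (487 identifiers, 438 with a symbol), and its fold change and *Q* columns were not used. The members and the gene lists were chosen with earlier results of these data known. All 15 genes are named, and from each other list all genes where 3 or fewer were found, otherwise the 2 highest and the 2 lowest by log2 fold change. Not every list or gene under this rule is printed. Genes most like the 15 are the 5 with a symbol and the highest *r* to their mean in CON.

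Counts were fitted in R 4.3.3 with edgeR 4.0.16 (TMM, quasi-likelihood test, robust=FALSE), for genes with 250 reads or more in 8 livers or more, with Benjamini-Hochberg adjustment over all genes tested and calls at an adjusted *P* under 0.15. The designs were treatment, treatment with sex, and their interaction. DESeq2 1.42.0 and limma 3.58.1 (voom) were alternatives, besides other scalings, read minimums, a replicate block and leaving out livers. The study names DESeq2 for its own comparison, and its list holds 487 genes. Here DESeq2 on all livers called 237, with 1 of the 15 among them, *SEC62* (1.61% of all genes were called lower). Why the counts differ was not tested. Log2 CPM used a prior count of 2. The fits were tested on simulated data with planted changes larger than those of the 15 genes and no liver set apart. That test does not bear on the detection of changes of the size described here. No pair of livers agreed within counting noise (smallest chi-square per degree of freedom 63.2). Summaries and plots used Python 3.11.15, numpy 2.4.6, scipy 1.17.1, pandas 2.3.3 and matplotlib 3.10.9.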

Additional observations from a re-analysis of the deposited data

Results flagged for a closer look

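In 9 of 30 groups of livers (15 genes in CON and in HOX), 1 liver lay far from the others, as the gap from the most extreme liver to its nearest neighbour divided by the range of the group on the log2 CPM scale. Chance alone marks about 1 in 20 such groups, and the groups are not independent, because the same livers recur. HOX animal 1 was the far liver in 6 genes, always as the highest: *ALG5* (gap 0.646 of the range), *DAD1* (0.701), *DDOST* (0.578), *RPN2* (0.722), *SRP19* (0.748) and *SRPRB* (0.634), against a critical value of 0.568 for 7 livers. CON animal 6 was the far liver in 3 genes, also as the highest: *SEC62* (0.518), *SRPRB* (0.502) and *SSR3* (0.527), against 0.493 for 9 livers. The cause was not tested. No gene of the 15 (0) went one way in every HOX male and the other way in every HOX female.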

How the results depend on the processing

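Limits. Each liver is 1 replicate, with 3 to 5 livers per sex and group, so modest differences between sexes would not be seen. HOX animal 1 and CON animal 6 weigh on most values, and the cause was not tested. Symbols were known only for genes of the study's own list. DESeq2 without HOX animal 1 in the sex fits, HOX livers only and the fit of the same livers without the block were chosen after seeing the data.

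HOX against CON, calls over all genes (5 with edgeR): DESeq2 237, limma-voom 146, no read minimum 1, DESeq2 without HOX animal 1 523, and 1 to 47 with each liver left out. Of the 15 genes, 0 passed the threshold with edgeR on all livers, with the replicate block, or with any 1 liver left out. With DESeq2, limma-voom and DESeq2 without HOX animal 1, 1, 3 and 14 of them passed, all lower. Of all genes, 1.61%, 1.11% and 3.56% were called lower in these fits. The counts are no test of the 15 genes, as the same contrast chose them. With each liver left out, their median log2 fold change was −0.37 to −0.15, and the single genes ran as follows: *ALG12* −0.50 to −0.32, *ALG14* −0.44 to −0.30, *ALG5* −0.32 to −0.0978, *DAD1* −0.34 to −0.12, *DDOST* −0.39 to −0.15, *DPM2* −0.54 to −0.33, *OSTC* −0.37 to −0.21, *RPN2* −0.25 to −0.05, *SEC11C* −0.51 to −0.12, *SEC62* −0.27 to −0.20, *SPCS2* −0.28 to −0.17, *SRP19* −0.41 to −0.0607, *SRPRB* −0.30 to −0.0658, *SSR2* −0.32 to −0.13, *SSR3* −0.41 to −0.14. The median *r* over CON livers was 0.20 to 0.57 and over HOX livers 0.62 to 0.87 when 1 liver was left out, and Spearman's coefficient in HOX had a median of 0.64.

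Replicate block. Both groups use the animal numbers 1 to 7, and with the number as a replicate block edgeR called 0 genes for HOX against CON (1 for the same livers without the block), with a median over the 15 genes of −0.25. For males against females it called 0 (1 without the block). The numbers do not pair livers: the correlation of livers with a shared number, after the group mean was taken off, was 0.153, 0.104, 0.0939, −0.0266, −0.314, 0.125 and −0.165 for numbers 1 to 7. Signs turned with the replicate block for males against females in *DPM2* −0.0236 and *SEC62* 0.0518, and for the interaction in *SEC62* −0.17, *SRP19* 0.17, *SRPRB* 0.095, *SSR2* 0.0941 and *SSR3* 0.11, and in *ALG14* 0.0018 for the same livers without the block.

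Males against females, calls over all genes (2 with edgeR): DESeq2 7, read minimum in more than 8 livers 1, DESeq2 without HOX animal 1 9, CON livers only 0, HOX livers only 0, and 1 to 2 with each liver left out. Log2 fold changes turned sign with limma-voom in *ALG12* 0.0573, *ALG14* 0.0339, *ALG5* 0.0397, *DDOST* 0.0683, *RPN2* 0.00365, *SRPRB* 0.0846, *SSR2* 0.0456 and *SSR3* 0.0599; with upper-quartile normalization in *ALG12* 0.0099; with DESeq2 without HOX animal 1 in *ALG12* 0.0343, *DDOST* 0.0445, *SRPRB* 0.0327, *SSR2* 0.0557 and *SSR3* 0.0021; in CON livers only in *ALG12* 0.0965, *DDOST* 0.0151, *RPN2* 0.0270 and *SSR2* 0.0628; and in HOX livers only in *SEC62* 0.0602. With each liver left out, values ran as follows: *ALG12* −0.12 to 0.14, *ALG14* −0.14 to 0.0219, *DDOST* −0.12 to 0.0536, *RPN2* −0.14 to 0.0090, *SEC62* −0.0633 to 0.0239, *SRPRB* −0.14 to 0.0409, *SSR2* −0.0938 to 0.0649, *SSR3* −0.20 to 0.0108.

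Sex by treatment interaction, calls over all genes (0 with edgeR): DESeq2 6, DESeq2 without HOX animal 1 6, and 0 to 3 with each liver left out. The median over the 15 genes was 0.0186 with limma-voom, 0.0886 with DESeq2 without HOX animal 1 and −0.29 to 0.10 with each liver left out. Coefficients turned sign with upper-quartile normalization in *ALG14* 0.0202; with DESeq2 without HOX animal 1 in *ALG14* 0.0273, *ALG5* 0.0940, *DAD1* 0.0687, *DDOST* 0.0641, *DPM2* 0.16, *SRP19* 0.34, *SRPRB* 0.25 and *SSR3* 0.20; and with limma-voom in *DAD1* 0.0088, *DDOST* 0.0186, *DPM2* 0.22, *SRP19* 0.26, *SRPRB* 0.14, *SSR2* 0.0046 and *SSR3* 0.16. With each liver left out, values ran as follows: *ALG14* −0.23 to 0.0783, *ALG5* −0.34 to 0.11, *DAD1* −0.30 to 0.0794, *DDOST* −0.34 to 0.0744, *DPM2* −0.27 to 0.17, *OSTC* −0.0195 to 0.28, *SPCS2* −0.0521 to 0.18, *SRP19* −0.27 to 0.35, *SRPRB* −0.22 to 0.26, *SSR3* −0.33 to 0.21.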
